A study of Homo sapiens with 8 samples.

Results

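The genes described are 43 interferon-induced genes and their regulators, measured by RNA-seq in U87MG cells, a human glioblastoma cell line. They were taken by gene symbol, and all 43 had a row among the 23368 gene rows of the count tables. Of these, 41 were among the 14448 genes with enough counts to test. RSAD2 and IFI27 were not tested, because RSAD2 had at most 0.0587 CPM and IFI27 at most 0.142 CPM in any of the 8 libraries. CPM are counts per 1e6 of a library's total over the tested genes, with that total multiplied by a TMM scaling factor given below. The tested cultures received enzalutamide, an androgen receptor antagonist used in prostate cancer, for 4 h, 24 h or 48 h, with 2 libraries per time. The 2 control libraries came from cells labelled as having no treatment. All groups were the same line in the same serum-containing medium, and the labels give no dose, no vehicle and no harvest time for the controls. No label says that the libraries of 1 group are separate cultures, and p-values then cover only their spread, which may be technical. One label states that cells were harvested after differentiation, and no differentiation step is described for any group.

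Type I interferons are secreted proteins that bind the receptor chains IFNAR1 and IFNAR2 and act through the kinases JAK1 and TYK2. These kinases phosphorylate STAT proteins, among them STAT2, which joins IRF9 in ISGF3, a factor that binds the interferon-stimulated response element in the promoters of many of the genes described here. Interferon gamma acts through JAK1 and JAK2, and in part through newly made IRF1. Cytosolic sensors such as RIG-I and MDA5 detect viral RNA and start interferon production, and many of the products block viral replication or display antigen. Many cell lines transcribe some of these genes at a low level without added interferon.

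The libraries held 24620833 to 37162565 counts, so 3 counts, the limit that a count of 0 allows, corresponded to between 0.0788 and 0.120 CPM for counting error only. The members together took 0.0849 to 0.102% of all counts. Vimentin, CD44 and fibronectin were among the abundant transcripts and markers of mesenchymal glioblastoma summed to 20365 and 21072 CPM in the controls, whereas the astrocyte gene GFAP was near 0 and AQP4 was at 0. Of 10 immune cell markers, 9 were at or near 0, at most 0.352 CPM (ITGAM), and the exception was CD68 at 567 to 1049 CPM. The 48 h libraries stood apart from the other 6 on the first principal component of all genes, which held 65.8% of the variance, at 88.0 and 79.0 against -37.6 to -19.5.

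The promoters of the members were read to show where the response element lies. They came from RefSeq on GRCh38.p14, whereas the counts were made on hg19 or GRCh37, so these positions belong to GRCh38.p14 only. A promoter was listed for 35 of the 43 members, with 46 promoters in all. DHX58, IRF7, IFIT2, IFITM2, OAS2, OASL, MX2 and USP18 had none in the table. A pair of letter patterns was searched on both strands in the 300-base windows, 250 of them before the gene start. The core of the interferon-stimulated response element, spelled GAAA, any 2 bases and GAAA, was in 28 of the 46 member promoters (60.9%), against 3.57% of all 35116 promoters. TTCNNNGAA, the core of the gamma-activated sequence, was in 12 of the 46 (26.1%), against 7.66% of all promoters. Counted by gene, 24 of 35 members (68.6%) and 4.38% of 27305 genes held the response element core. In the bases before the start alone, 52.2% of member promoters and 3.02% of all promoters held it. A match is a description of the letters and does not show that a factor binds there.

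A set of 8 stretches is shown, because these genes carry the patterns described below. IFI44L fell at 4 h only, IFIT1 fell at 4 and 48 h, and OAS3 fell at 4 h and rose at 24 h. SAMD9 rose at 24 h and fell at 48 h, and EIF2AK2 and TAP1 rose at 24 and 48 h. ISG15 was called at no time against control, and IRF1 was the regulator with the largest rise in CPM at 48 h. Where a gene had more than 1 promoter, the one with the most matches was printed. Members without a match to either pattern, among them DDX58, SAMD9L, UBE2L6 and XAF1, are not shown. Each stretch runs 5′ to 3′ on the strand of the gene and ends at the base before its start. EIF2AK2 is the exception and ends 10 bases after its start. Capitals mark the response element core, which on the opposite strand reads TTTC, any 2 bases and TTTC, and in IRF1 they mark TTCNNNGAA. The windows are chr1:78620278-78620447 (plus strand), chr12:112938304-112938473 (plus), chr10:89392453-89392622 (plus), chr7:93117980-93118149 (minus), chr1:1013327-1013496 (plus), chr6:32853705-32853874 (minus), chr2:37156971-37157140 (minus) and chr5:132490774-132490943 (minus), in the order printed.
IFI44L: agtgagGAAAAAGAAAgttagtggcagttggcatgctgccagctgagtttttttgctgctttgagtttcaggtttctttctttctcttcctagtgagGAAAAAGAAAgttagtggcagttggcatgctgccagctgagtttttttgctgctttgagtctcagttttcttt
OAS3: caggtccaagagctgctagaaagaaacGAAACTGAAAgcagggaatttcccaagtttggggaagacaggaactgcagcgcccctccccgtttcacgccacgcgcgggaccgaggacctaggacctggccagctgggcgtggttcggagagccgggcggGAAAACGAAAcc
IFIT1: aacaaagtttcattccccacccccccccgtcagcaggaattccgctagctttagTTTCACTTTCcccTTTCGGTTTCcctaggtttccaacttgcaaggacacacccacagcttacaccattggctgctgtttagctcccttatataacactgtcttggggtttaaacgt
SAMD9: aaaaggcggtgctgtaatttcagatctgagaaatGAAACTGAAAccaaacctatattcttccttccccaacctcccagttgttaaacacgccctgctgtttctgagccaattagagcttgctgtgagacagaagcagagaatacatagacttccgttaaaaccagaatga
ISG15: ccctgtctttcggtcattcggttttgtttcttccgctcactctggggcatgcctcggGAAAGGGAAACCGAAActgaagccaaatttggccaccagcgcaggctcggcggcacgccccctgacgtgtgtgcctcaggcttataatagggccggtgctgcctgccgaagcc
TAP1: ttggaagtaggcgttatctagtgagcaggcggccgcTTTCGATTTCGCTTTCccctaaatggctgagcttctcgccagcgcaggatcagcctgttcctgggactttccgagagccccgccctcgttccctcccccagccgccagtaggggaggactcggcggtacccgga
EIF2AK2: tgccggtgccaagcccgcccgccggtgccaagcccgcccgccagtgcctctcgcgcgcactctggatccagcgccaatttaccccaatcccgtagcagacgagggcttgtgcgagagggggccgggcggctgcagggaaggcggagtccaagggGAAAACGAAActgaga
IRF1: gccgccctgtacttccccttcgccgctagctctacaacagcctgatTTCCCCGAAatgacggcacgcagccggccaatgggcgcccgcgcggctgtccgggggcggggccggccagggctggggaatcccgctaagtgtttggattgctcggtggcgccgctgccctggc
The IFI44L stretch held the same run of 66 bases at 2 places, starting 170 and 79 bases before the gene start, and each copy carried 1 match. The first copy begins at the edge of the printed stretch, and only that stretch was searched, so the run may be longer. OAS3 had matches starting 143 and 12 bases before its start. IFIT1 had a pair starting 116 and 103 bases before its start. The pairs in ISG15 and TAP1 overlapped each other. The IRF1 stretch held the gamma-activated core and not that of the response element.

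Over the 3 times together, holding the response element core did not go with a single direction of change. Of the members with a promoter, 6 of 10 that fell, 1 of 2 that rose and 15 of 21 not called at 4 h held it. At 24 h it was in 4 of 4 that rose, 0 of 3 that fell and 18 of 26 not called. DHX58, OASL and MX2 were also lower at 24 h but had no promoter listed. At 48 h it was in 4 of 7 that rose, 9 of 15 that fell and 9 of 11 not called. These are counts only.

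Interferon-induced genes did not move as a block under enzalutamide. At 4 h more members fell than rose, and at 24 h most were not called. At 48 h 21 of the 41 tested members fell, while a smaller set that includes IRF1, IRF7 and the antigen-processing genes rose. In total 32 of the 41 tested members were called at 1 or more of the 3 times against control, in edgeR's quasi-likelihood test with Benjamini-Hochberg adjusted p under 0.05 over all 14448 genes. That is 78.0% of the members, near the 77.4% of all tested genes called at 1 or more times. Of these 32, 20 were called only as lower, 5 only as higher and 7 in both directions at different times. These are 48.8, 12.2 and 17.1% of the 41 members, beside 29.1, 32.3 and 16.0% of all tested genes. The 9 called at no time against control were IFIH1, IRF9, IFITM1, IFITM2, IFITM3, BST2, ISG15, HERC6 and IFI6. RNA came from whole cultures, so fewer cells expressing a gene and less RNA of it per cell cannot be told apart.

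At 4 h, 3 members were higher and 11 lower than in controls, which is 7.32 and 26.8% of the 41. Among all genes tested at that time, 15.0% were called higher and 13.6% lower. The members' median log2 change was -0.15, and that of all tested genes was -0.00. Without control replicate 2 the members' median was -0.22. The 4 h counts changed when single libraries were left out: 4 members were lower without control replicate 1, 7 without control replicate 2, 6 without 4 h replicate 1 and 5 without 4 h replicate 2. The count of higher members was 0 without control replicate 2 or 4 h replicate 1, and 1 without 4 h replicate 2. Fewer of all tested genes were also called, in each direction, without each of these libraries. With library totals as the only scaling, 1 member was higher and 16 were lower, beside 1652 and 2667 of all 14448 tested genes.

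At 24 h, 4 members were higher and 6 lower, or 9.76 and 14.6%, against 12.9% called higher and 9.39% called lower among all 14448 genes. The members' median log2 change was -0.06 and that of all tested genes 0.01. The members' median was -0.02 without control replicate 1 or without the filter on low counts, -0.03 for the 33 members that passed a filter at 5 CPM, and -0.12 when library totals alone set the scale. The count of lower members was 0 without control replicate 1 or 24 h replicate 1, and 2 without control replicate 2 or 24 h replicate 2. It was 10 when both 48 h libraries were left out, a choice made after seeing the data, beside 2330 of 14388 genes tested then. Calls among all tested genes likewise became fewer without a control or 24 h library, and more without 1 or both 48 h libraries. The count of higher members was 7 without 48 h replicate 1 or 48 h replicate 2.

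At 48 h, 8 members were higher and 21 lower, or 19.5 and 51.2%, beside 33.3% called higher and 33.5% called lower among all 14448 genes. The members' median log2 change was -0.51 and that of all tested genes -0.02. It was -0.31 without control replicate 1, and -0.09 among the 33 members that passed the filter at 5 CPM. Of those 33, 7 were higher and 15 lower, beside 3978 and 4161 of the 11076 genes that passed. With DESeq2 8 members were higher and 19 lower, beside 4738 and 4375 genes in all. Without any single library, 19 to 21 members were lower. The count of higher members was 12 without 48 h replicate 2, and 7 or 8 without any other library. When library totals alone set the scale, the median of all genes at 48 h shifted to -0.30 and that of the members to -0.79. Then 6 members were higher and 23 lower, beside 2742 and 6729 of all 14448 tested genes.

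**Figure D1:**
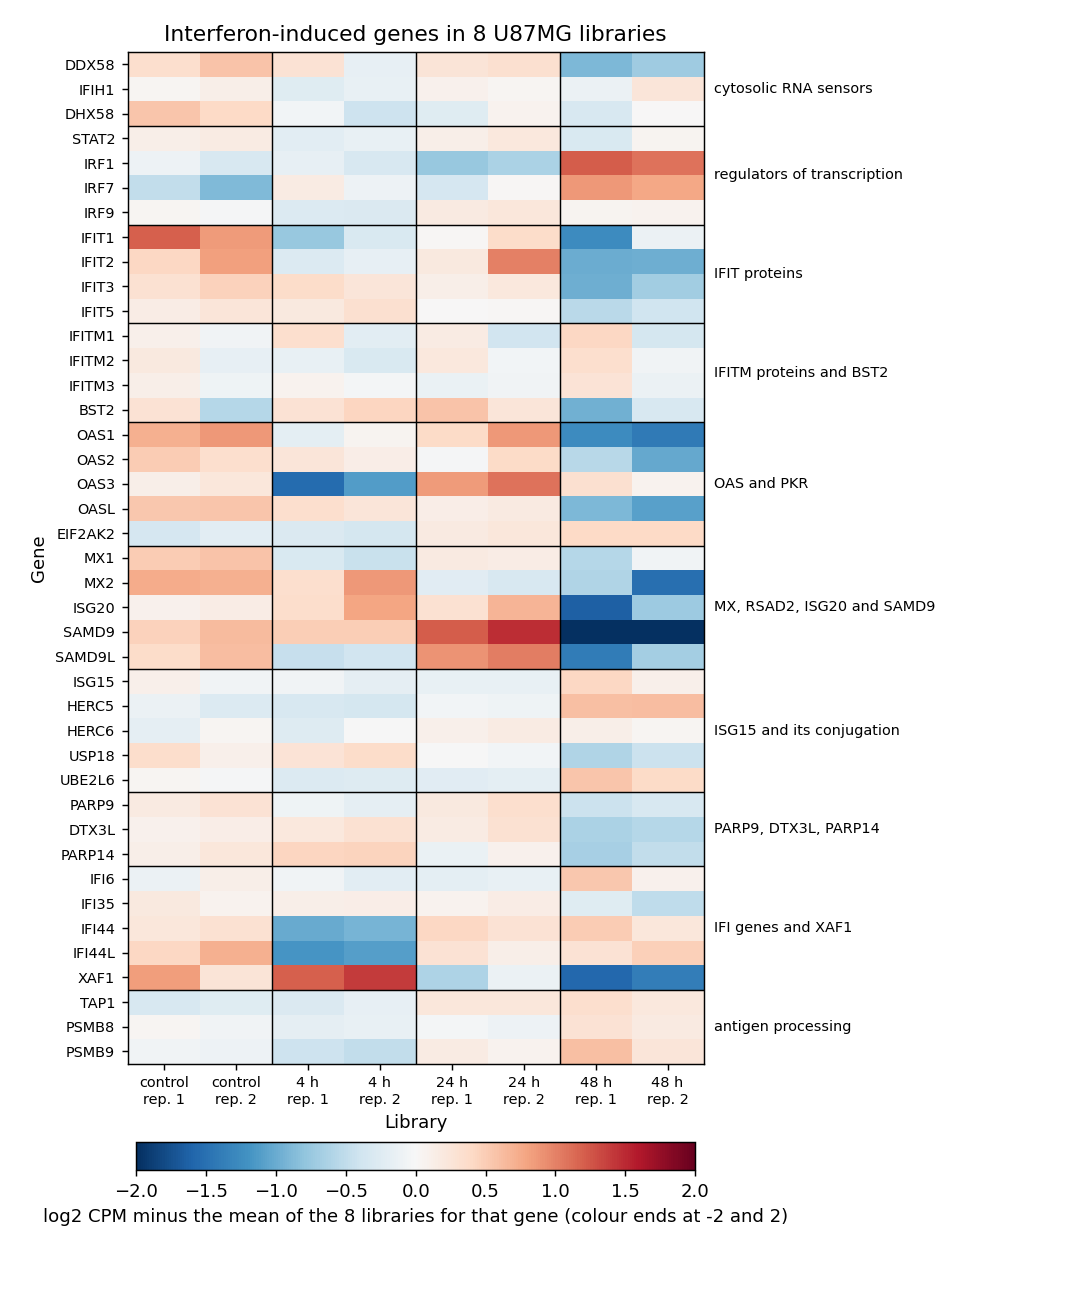
Heatmap of the 41 tested members (rows, grouped by role) in the 8 libraries (columns, control then 4, 24 and 48 h of enzalutamide). Colour is log2 CPM minus the mean of the 8 libraries for that gene, and pale rows include HERC6 and IFITM3, called at no time against control, as well as PSMB8 and STAT2, whose called changes were small, while SAMD9 at 48 h lies beyond the lower end of the colour scale.

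Neighbouring times were also compared. At 24 h against 4 h, 13 members were higher and 5 lower, beside 21.2 and 20.3% of all tested genes, and the members' median log2 change was 0.15. The lower count was 3 without 4 h replicate 2, 24 h replicate 1 or 24 h replicate 2. At 48 h against 24 h, 9 members were higher and 20 lower, beside 31.5 and 35.3% of all tested genes, with a median log2 change of -0.48. That median was -0.29 without 48 h replicate 1 and -0.15 with the filter at 5 CPM. The higher count was 5 without 24 h replicate 1, and 4 with library totals as the only scaling. Comparisons that share a group of libraries are not independent of each other.

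The cytosolic RNA sensors fell at 48 h in 2 of 3 cases. Counts at 48 h for this and the other small groups of members stand beside 33.3% of all tested genes called higher and 33.5% lower. DDX58 encodes RIG-I, which recognises viral RNA with a triphosphate end. It was at 3.95 and 4.54 CPM at 48 h, against 9.41 and 11.1 CPM in controls. The 48 h libraries lay below both controls (log2 change -1.27 ± 0.18, SE, adjusted p = 6.58e-05). At 4 h it had 9.16 and 6.62 CPM and at 24 h 8.93 and 9.31 CPM, and neither time was called. DHX58 encodes LGP2, a regulator of the other sensors, and was lower at all 3 times with log2 changes of -0.71 at 4 h, -0.56 at 24 h and -0.64 at 48 h. The 4 h call of DHX58 was lost without control replicate 1 or 4 h replicate 2 (highest adjusted p = 0.115), and its 24 h call without any control or 24 h library (highest adjusted p = 0.246). IFIH1 encodes MDA5, the sensor of long double-stranded RNA, and had between 7.04 and 9.87 CPM in the 8 libraries with no call.

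Among regulators of transcription, IRF1 and IRF7 were the members with the largest rises at 48 h. IRF1 encodes a transcription factor that drives antigen-presentation genes. It had 153 and 139.7 CPM at 48 h, against 61.7 and 53.1 CPM in controls. Both 48 h libraries lay above every other library (log2 change 1.35 ± 0.09, SE, adjusted p = 2.66e-07). At 24 h, however, IRF1 had 38.9 and 42.4 CPM and lay below both controls (log2 change -0.50 ± 0.09, adjusted p = 0.00334). The 24 h call was lost without control replicate 1 or 24 h replicate 1 (highest adjusted p = 0.0514). At 4 h IRF1 had 58.8 and 52.8 CPM, which overlapped the controls.

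IRF7 encodes the factor that amplifies type I interferon production. It had 11.7 and 11 CPM at 48 h, against 4.53 and 3.45 CPM in controls. The 48 h level did not overlap that of any other time (log2 change 1.50 ± 0.18, SE, adjusted p = 2.09e-05). At 4 h it had 7.16 and 5.97 CPM and was also higher than in controls (log2 change 0.71 ± 0.19, adjusted p = 0.0158), a call lost without control replicate 2 or 4 h replicate 1 (highest adjusted p = 0.134). At 24 h it had 5.04 and 6.55 CPM and was not called.

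STAT2, a subunit of ISGF3, showed small falls. It had 57.2 and 59.2 CPM at 4 h and 53.2 and 68.2 CPM at 48 h, against 71.6 and 73.8 CPM in controls, with 71.8 and 76.7 CPM at 24 h. Both falls separated the libraries (log2 change -0.32 ± 0.10 at 4 h and -0.26 ± 0.10 at 48 h, SE, adjusted p = 0.035 and 0.0385), but the spread between the 48 h libraries was larger than that between the controls. The 4 h call was lost without any control, 4 h or 24 h library (highest adjusted p = 0.173). The 48 h call was lost without any control, 4 h or 24 h library or 48 h replicate 1 (highest adjusted p = 0.287), and STAT2 then had a log2 change as small as -0.09. It was also lost with DESeq2 and in a fit of the 2 groups alone. IRF9, the DNA-binding subunit of ISGF3, had 9.77 to 14.0 CPM and was not called against control, but was higher at 24 h against 4 h (log2 change 0.49, adjusted p = 0.00308).

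All 4 IFIT genes, whose products bind foreign RNA and block its translation, were lower at 48 h. IFIT1 had 0.545 and 1.27 CPM at 48 h and 0.8 and 1.12 CPM at 4 h, against 3.26 and 2.56 CPM in controls. Both times lay below the controls (log2 change -1.68 ± 0.35 at 48 h and -1.57 ± 0.34 at 4 h, SE, adjusted p = 0.0012 and 0.00585). The 4 h call was lost without control replicate 1 or 4 h replicate 1 (highest adjusted p = 0.0545). At 24 h IFIT1 had 1.42 and 1.82 CPM, below the controls without a call.

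IFIT2 had 0.851 and 0.86 CPM at 48 h, against 2.35 and 3.16 CPM in controls (log2 change -1.68 ± 0.33, SE, adjusted p = 0.000809). It had 1.44 and 1.56 CPM at 4 h and 2.02 and 3.58 CPM at 24 h, and neither was called. IFIT3, which stabilises IFIT1 on RNA, had a higher level per kb than IFIT1 and had 8.37 and 10.2 CPM at 48 h, against 20.6 and 22.8 CPM in controls. At 48 h both libraries lay below all others (log2 change -1.23 ± 0.12, SE, adjusted p = 4.28e-06), whereas 4 h (21.4 and 19.6 CPM) and 24 h (18 and 19.2 CPM) were not called. IFIT5 fell less, with a log2 change of -0.66 at 48 h, and was not called at 4 or 24 h. The IFIT genes are related in sequence, and no source used here says how reads shared between them were assigned.

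The IFITM genes and BST2 encode membrane proteins that block entry or release of viruses, and none of the 4 was called at any time against control. IFITM3 had the highest level per kb of them, with 30.2 to 40.0 CPM. IFITM2 had 6.94 to 10.9 CPM and IFITM1 1.38 to 2.45 CPM, and BST2 had 1.06 to 3.18 CPM. BST2 was lower at 48 h against 24 h (log2 change -1.06, adjusted p = 0.0121). In each of these genes the libraries of every treated time overlapped the controls. IFITM1, IFITM2 and IFITM3 are near-identical in places, so their split is uncertain.

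The OAS genes and PKR, which respond to double-stranded RNA, took several courses. The OAS enzymes make 2-5A, the activator of RNase L. OAS3 had 4.88 and 6.62 CPM at 4 h, against 15.6 and 16.8 CPM in controls. At 24 h it had 25.9 and 30.5 CPM, above both controls, and at 48 h 18 and 15.1 CPM, which overlapped them. The log2 change was -1.48 ± 0.16 at 4 h and 0.80 ± 0.14 at 24 h (SE, adjusted p = 6.31e-05 and 0.0021). OAS3 was thus the only member called lower at 4 h and higher at 24 h.

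OAS1 and OAS2 were scarce. OAS1 had 0.238 and 0.206 CPM at 48 h, against 1.11 and 1.24 CPM in controls, a few counts per library at 48 h. It did not overlap the controls there (log2 change -2.38 ± 0.39, SE, adjusted p = 0.000246), and its levels at 4 h (0.56 and 0.677 CPM) and 24 h (0.867 and 1.23 CPM) were not called. OAS2 had 0.783 and 0.55 CPM at 48 h, against 1.7 and 1.5 CPM in controls (log2 change -1.26 ± 0.31, SE, adjusted p = 0.00369), with 1.4 and 1.29 CPM at 4 h and 1.16 and 1.56 CPM at 24 h, not called.

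OASL encodes an OAS-like protein without synthetase activity that supports RIG-I signalling. It had 21.6 and 22.3 CPM at 24 h and 10.5 and 9.28 CPM at 48 h, against 28.6 and 28.9 CPM in controls. Both times lay below the controls (log2 change -0.39 ± 0.09 at 24 h and -1.54 ± 0.10 at 48 h, SE, adjusted p = 0.0113 and 1.64e-07). The 24 h call was lost without any control or 24 h library (highest adjusted p = 0.0992). At 4 h OASL had 24.8 and 23.4 CPM and was not called.

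EIF2AK2 encodes PKR, the kinase that stops translation on sensing double-stranded RNA, and it rose at 48 h, when OAS1, OAS2 and OASL fell. It had 55.3 and 57.3 CPM at 24 h and 64.4 and 64.8 CPM at 48 h, against 38.9 and 42.5 CPM in controls. Neither time overlapped the controls (log2 change 0.47 ± 0.07 at 24 h and 0.67 ± 0.07 at 48 h, SE, adjusted p = 0.0011 and 1.02e-05). At 4 h it had 39.96 and 38.4 CPM and overlapped them.

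**Figure D2:**
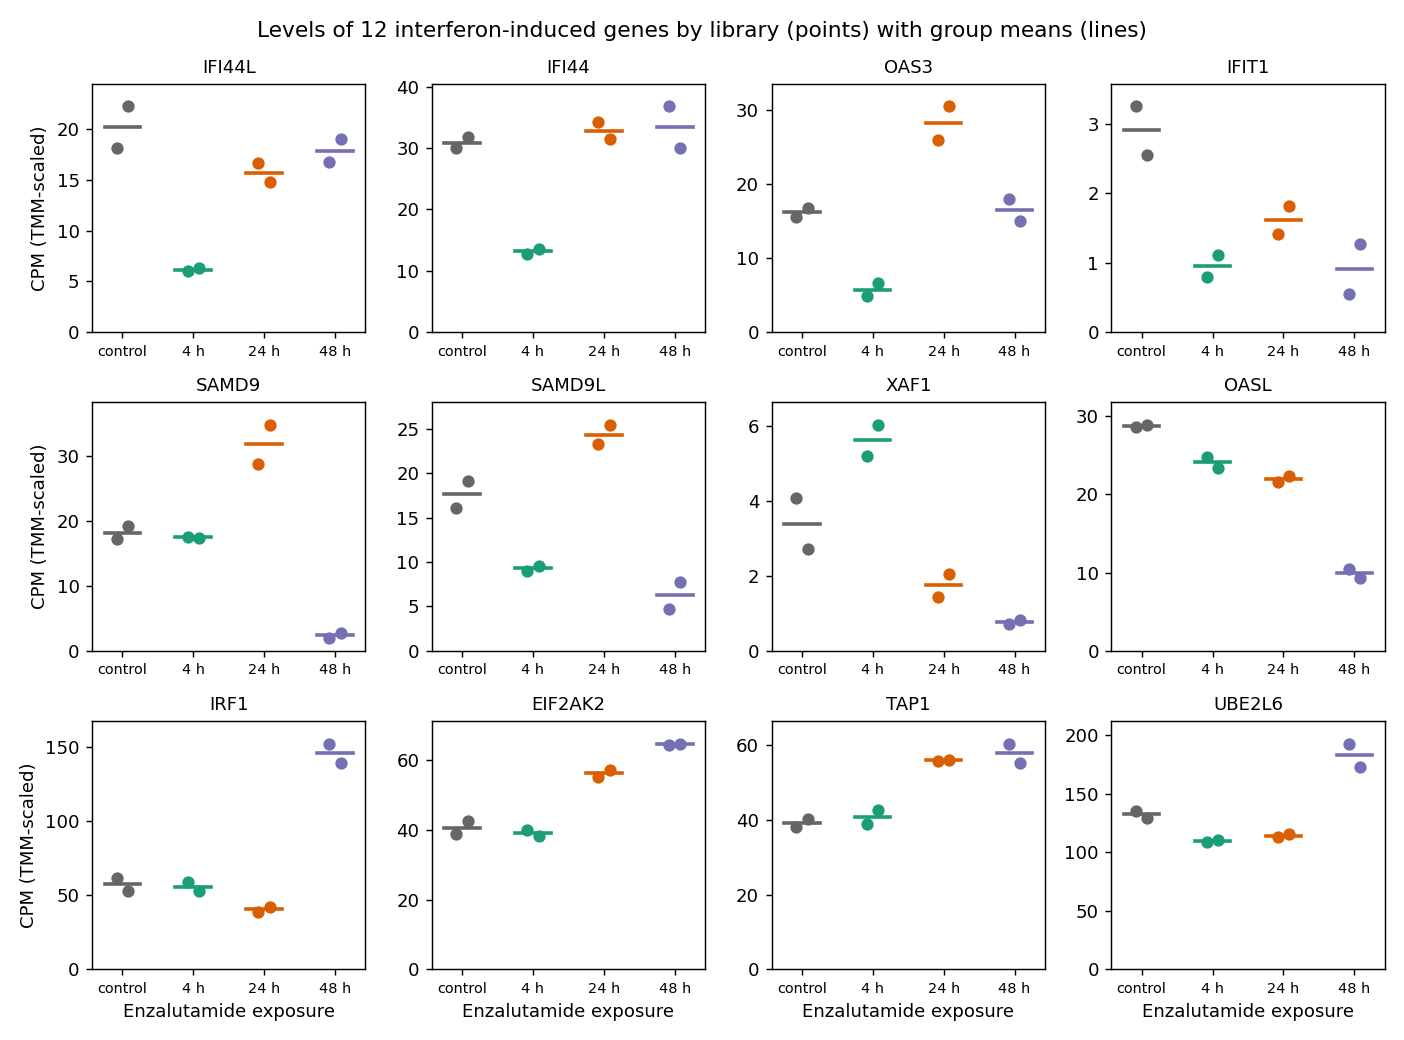
TMM-scaled CPM (vertical axes, linear and starting at 0) of 12 members in control cells and after 4, 24 and 48 h of enzalutamide. Points are libraries and lines are means of 2 libraries; IFI44L, IFI44 and OAS3 dip at 4 h, SAMD9 is highest at 24 h and lowest at 48 h, and IRF1 and UBE2L6 are highest at 48 h.

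The effectors MX1, MX2, ISG20, SAMD9 and SAMD9L were all lower at 48 h. SAMD9 encodes an antiviral and growth-restraining protein and showed the largest fall of any member. It had 1.94 and 2.78 CPM at 48 h, against 17.2 and 19.2 CPM in controls. Both lay far below all others (log2 change -2.94 ± 0.17, SE, adjusted p = 7.45e-08). At 24 h it had 28.8 and 34.8 CPM, above both controls (log2 change 0.80 ± 0.13, adjusted p = 0.00129), and at 4 h 17.5 and 17.4 CPM, not called.

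SAMD9L, the neighbouring paralog, had 9.04 and 9.53 CPM at 4 h and 4.7 and 7.77 CPM at 48 h, against 16.1 and 19.2 CPM in controls. Both times lay below the controls (log2 change -0.92 ± 0.18 at 4 h and -1.50 ± 0.19 at 48 h, SE, adjusted p = 0.00292 and 2.78e-05). At 24 h it had 23.3 and 25.5 CPM, above the controls and not called. The 2 paralogs share sequence, so some reads may have been split between them.

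MX2 encodes a dynamin-like protein that restricts HIV. It had 3.26 and 3.05 CPM at 24 h and 2.52 and 1.31 CPM at 48 h, against 6.46 and 6.33 CPM in controls. Both times lay below the controls (log2 change -1.02 ± 0.24 at 24 h and -1.74 ± 0.27 at 48 h, SE, adjusted p = 0.0127 and 0.000149). The 24 h call was lost without any control or 24 h library (highest adjusted p = 0.0957). The 4 h libraries, at 4.84 and 7.06 CPM, straddled the controls. MX1, the influenza restriction factor, had 0.885 to 2.01 CPM in the 8 libraries and was lower at 4 h (log2 change -0.95) and 48 h (-0.87). Those MX1 calls were lost at 4 h without any control or 4 h library (highest adjusted p = 0.127) and at 48 h without control replicate 2 or 48 h replicate 1 (highest adjusted p = 0.103), and both were lost with DESeq2.

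ISG20, an RNA exonuclease, had 0.545 and 1.07 CPM at 48 h, against 1.93 and 2.01 CPM in controls. Both lay below the controls (log2 change -1.29 ± 0.33, SE, adjusted p = 0.0048). It had 2.32 and 3.18 CPM at 4 h and 2.26 and 2.94 CPM at 24 h, above the controls and not called. RSAD2, which encodes viperin, was at 0 counts in all 4 h and 48 h libraries and at most 0.0587 CPM elsewhere, under the limit that a count of 0 allows.

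ISG15 and the enzymes that attach or remove it did not move together. ISG15 is a ubiquitin-like modifier and had 11.9 to 18.0 CPM with no call against control, and was higher at 48 h against 24 h (log2 change 0.42, adjusted p = 0.0126). UBE2L6, the conjugating enzyme for ISG15, had the highest level per kb of all members. It had 193 and 173 CPM at 48 h, against 136 and 129 CPM in controls, and 109 and 111 CPM at 4 h and 113 and 115 CPM at 24 h. UBE2L6 therefore lay above the controls at 48 h (log2 change 0.46 ± 0.07, SE, adjusted p = 9.85e-05) and below them at 4 h (-0.27 ± 0.07, adjusted p = 0.012) and 24 h (-0.21 ± 0.07, adjusted p = 0.0429). Both falls were small, and they were lost at 4 h without any 4 h library or control replicate 1 (highest adjusted p = 0.0928) and at 24 h without any control, 4 h or 24 h library (highest adjusted p = 0.241).

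HERC5, the main ligase for ISG15 in human cells, was higher at 48 h with a log2 change of 0.80. USP18, which removes ISG15 and restrains the interferon receptor, was lower at 48 h with a log2 change of -0.74. HERC6 had 9.76 to 13.0 CPM and was not called. Of these 5 genes, 2 were higher, 1 was lower and 2 were not called at 48 h, beside 33.3% of all tested genes higher and 33.5% lower.

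PARP9, DTX3L and PARP14 were all lower at 48 h. PARP9 and the ubiquitin ligase DTX3L form a complex linked to DNA repair, and PARP14 is a related mono-ADP-ribosyltransferase. DTX3L had 30.1 and 31.3 CPM at 48 h, against 49.7 and 51.4 CPM in controls. Both lay below all others (log2 change -0.72 ± 0.08, SE, adjusted p = 1.22e-05), while 4 h (54 and 58 CPM) and 24 h (52.2 and 58 CPM) were not called. PARP9 was lower at 4 h (log2 change -0.36) and 48 h (-0.61), and its 4 h call was lost without any control or 4 h library (highest adjusted p = 0.144).

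PARP14 had 67.3 and 67.8 CPM at 4 h and 31.4 and 35.7 CPM at 48 h, against 53.9 and 58.2 CPM in controls. It lay above the controls at 4 h (log2 change 0.27 ± 0.09, SE, adjusted p = 0.0451) and below them at 48 h (-0.74 ± 0.09, adjusted p = 3.09e-05). The 4 h rise was lost without any control, 4 h or 24 h library (highest adjusted p = 0.249), with library totals as the only scaling, without the filter on low counts and with DESeq2. At 24 h PARP14 had 45.6 and 53 CPM and was not called. PARP9 and DTX3L lie head to head in the genome, and no source used here says whether reads were counted by strand.

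IFI44 and IFI44L, neighbouring genes whose products are reported to dampen cell growth and interferon responses, were called lower at 4 h and not at 24 or 48 h. IFI44L had 6 and 6.3 CPM at 4 h, against 18.1 and 22.3 CPM in controls. The 4 h libraries lay below every other library (log2 change -1.71 ± 0.14, SE, adjusted p = 1e-05), and this was the largest change of a member at that time. At 24 h it had 16.7 and 14.8 CPM and at 48 h 16.7 and 19 CPM, without a call. IFI44 had 12.8 and 13.5 CPM at 4 h, against 30.04 and 31.7 CPM in controls (log2 change -1.23 ± 0.11, SE, adjusted p = 2e-05). Its 24 h (34.2 and 31.4 CPM) and 48 h (36.8 and 30.1 CPM) libraries overlapped the controls. Both calls held without each library in turn. Against 4 h, the 24 h level was higher for IFI44 (log2 change 1.32 ± 0.11, SE) and IFI44L (1.35 ± 0.14), with adjusted p = 4.72e-06 and 2.2e-05.

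XAF1 encodes a pro-apoptotic antagonist of XIAP. It had 5.2 and 6.03 CPM at 4 h, 1.44 and 2.06 CPM at 24 h and 0.715 and 0.825 CPM at 48 h, against 4.08 and 2.7 CPM in controls. It lay above the controls at 4 h and below them at 24 and 48 h. The log2 change was 0.73 ± 0.23 at 4 h, -0.96 ± 0.25 at 24 h and -2.14 ± 0.30 at 48 h (SE, adjusted p = 0.0356, 0.0203 and 7.35e-05). The 4 h rise was lost without any 4 h library or control replicate 2 (highest adjusted p = 0.255), with library totals as the only scaling and with DESeq2, and the 24 h fall was lost without control replicate 1 or 24 h replicate 1 (highest adjusted p = 0.206). IFI35, a small leucine zipper protein, was lower at 48 h (log2 change -0.51). IFI6, a membrane protein that restricts flaviviruses, had 12.1 to 20.2 CPM with no call against control, and was higher at 48 h against 24 h (log2 change 0.50, adjusted p = 0.0109).

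The antigen-processing members were the group that was higher at 48 h in all 3 cases. TAP1 encodes a subunit of the transporter that carries peptides into the endoplasmic reticulum. It had 55.9 and 56.1 CPM at 24 h and 60.5 and 55.3 CPM at 48 h, against 38.1 and 40.4 CPM in controls. Neither time overlapped the controls (log2 change 0.51 ± 0.08 at 24 h and 0.56 ± 0.08 at 48 h, SE, adjusted p = 0.00103 and 7.65e-05), whereas the 4 h libraries, at 39 and 42.8 CPM, did.

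PSMB8 and PSMB9 encode catalytic subunits of the immunoproteasome. PSMB8 had 68.9 and 63.6 CPM at 48 h, against 58 and 53.8 CPM in controls, with 49.7 and 50.9 CPM at 4 h and 54.6 and 52.6 CPM at 24 h. The 48 h libraries lay above the controls (log2 change 0.24 ± 0.07, SE, adjusted p = 0.0115). When library totals alone set the scale, the PSMB8 change at 48 h was -0.035 (adjusted p = 0.682), and the call was also lost without control replicate 2 (highest adjusted p = 0.102), with the filter at 5 CPM and in a fit of the 2 groups alone. PSMB9 was lower at 4 h (log2 change -0.36) and higher at 48 h (0.53). Its 4 h call was lost without any control, 4 h or 24 h library (highest adjusted p = 0.199), and its 48 h call was lost with library totals as the only scaling (adjusted p = 0.0627). TAP1 and PSMB9 lie head to head and PSMB8 has an antisense partner, and no source used here says whether reads were counted by strand. Any reads that overlap a partner may therefore have been counted for either gene.

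**Figure D3:**
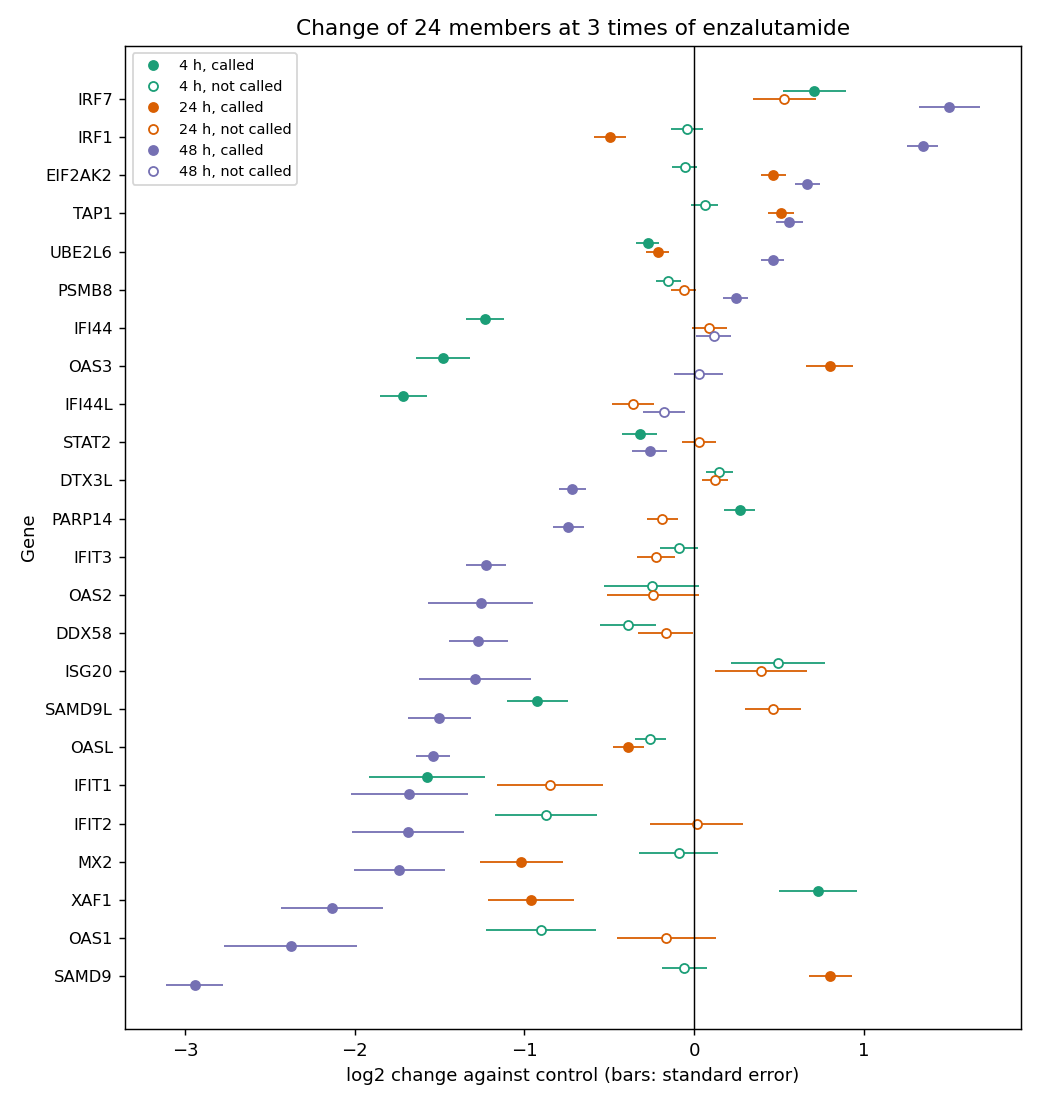
Log2 change against control of the 24 members with values given in every library, at 4, 24 and 48 h of enzalutamide, sorted by the change at 48 h. Points are fitted changes, bars are standard errors and filled points are called at an adjusted p under 0.05; SAMD9, OAS1 and XAF1 lie lowest and IRF1 and IRF7 highest at 48 h.

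Levels of different genes were compared per kb of exon, with exon lengths of GENCODE 29 matched by symbol. At 48 h UBE2L6 stood highest at 102 ± 7.97 CPM per kb (SD, n = 2), and at 73.8 ± 2.49 in controls. PSMB8 came next at 42.8 ± 2.38 at 48 h and 36.1 ± 1.93 in controls. IRF1 was the third at 48 h, with 38.5 ± 2.39 CPM per kb, and the ninth in controls, with 15.1 ± 1.61. At 48 h IRF1 and PSMB9 (38.3 ± 6.82 CPM per kb) did not differ beyond their spread, nor in controls did IFITM3 (27.6 ± 2.74) and PSMB9 (26.6 ± 0.352). The scarcest members apart from RSAD2 and IFI27 were OAS1 and OAS2, with 0.054 ± 0.00549 and 0.107 ± 0.0264 CPM per kb at 48 h and 0.285 ± 0.0227 and 0.256 ± 0.0231 in controls.

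The CPM of the 43 members were also summed. The sum was 1048 and 997 CPM at 48 h, against 948 and 945 CPM in controls, and it was 837 CPM in both 4 h libraries and 932 and 973 CPM at 24 h. Without the 3 most abundant members it was 649.9 and 616 CPM at 48 h, against 679 and 689 CPM in controls. The unweighted mean of the members' centred log2 CPM was -0.29 and -0.27 at 48 h, against 0.21 and 0.18 in controls, with -0.08 and -0.07 at 4 h and 0.11 and 0.20 at 24 h.

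Members differed in how closely they tracked the mean of the other members over the 8 libraries. Pearson's r was highest for OAS1 and PARP9 (0.97 each) and IFIT2 (0.96), and most negative for IRF7 (-0.89) and IRF1 (-0.86). IFI44 (0.09) and IFI44L (0.13) stood near 0. Outside the members, the 6 genes whose levels were most like the members' mean, among those averaging a log2 CPM of 2 or more, were TGFBR2, PLCL2, SEMA4B, TNS3, F2R and ANGPT1, with r between 0.985 and 0.987 over 8 libraries. TGFBR2 had 34.2 and 40.5 CPM at 48 h, against 136 and 141 CPM in controls. None of these 6 was on the lists of interferon pathway genes, and the 8 points share 4 groups, so these values are descriptions.

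Interferon genes themselves were not detected. All 9 listed interferon genes (IFNA1, IFNA2, IFNB1, IFNE, IFNG, IFNK and the lambda interferons listed as IL28A, IL28B and IL29) had 0 counts in all 8 libraries. At these depths a count of 0 allows a level of up to 0.0788 to 0.120 CPM per library. Of the wider pathway, 99 of 119 further listed genes were tested. At 4 h 11 of them were higher and 22 lower (11.1 and 22.2%, beside 15.0 and 13.6% of all tested genes). At 24 h 8 were higher and 15 lower (8.08 and 15.2%, beside 12.9 and 9.39%). At 48 h 32 were higher and 46 lower (32.3 and 46.5%, beside 33.3 and 33.5%). The counts of the smaller lists that follow stand beside the same shares of all genes. Their median log2 change was -0.09 at 4 h, -0.06 at 24 h and -0.23 at 48 h.

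Of 9 receptor and JAK kinase genes, 2 were higher and 5 lower at 48 h, 2 higher and 4 lower at 4 h, and 3 higher and 1 lower at 24 h. The median log2 change was -0.22 at 4 h, 0.14 at 24 h and -0.23 at 48 h. IFNGR2, the signalling chain of the interferon gamma receptor, had 19.96 and 19.8 CPM at 4 h, against 39.8 and 40.5 CPM in controls (log2 change -1.01 ± 0.09, SE, adjusted p = 1.34e-05). IFNGR1, the ligand-binding chain, was higher at 4 h (0.40) and 48 h (0.60). JAK2 was lower at 4 h (-0.67) and at 48 h, with 8.71 and 10.6 CPM at 48 h against 17.5 and 19.6 CPM in controls (log2 change -0.95 ± 0.13). IFNGR2 was also lower by small amounts at 24 and 48 h, and those calls were lost at 24 h without any control, 4 h or 24 h library (highest adjusted p = 0.285) and at 48 h without any control library or 48 h replicate 2 (highest adjusted p = 0.14).

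Of 9 tested STAT and IRF factors, 5 were higher and 4 lower at 48 h. The 4 h counts were 1 higher and 1 lower, and the 24 h counts 0 higher and 2 lower. NLRC5, the activator of class I antigen-presentation genes, had 25.3 and 21.8 CPM at 48 h, against 55.6 and 59.1 CPM in controls. CIITA, the activator of class II genes, had 6.4 and 7.67 CPM at 48 h, against 21.3 and 21.7 CPM in controls. Both fell (log2 change -1.28 ± 0.09 for NLRC5 and -1.61 ± 0.12 for CIITA, SE, adjusted p = 3.3e-07 and 6.04e-07). NLRC5 was also lower at 24 h (-0.44), a call lost without 24 h replicate 1 (highest adjusted p = 0.0666). IRF5, a factor downstream of Toll-like receptors, had 4.32 and 3.2 CPM at 48 h, against 0.68 and 0.69 CPM in controls (log2 change 2.45 ± 0.31, adjusted p = 3.6e-05).

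Of 13 tested adaptors and kinases of nucleic acid sensing, 2 were higher and 9 lower at 48 h. Counts were 1 higher and 3 lower at 4 h, and 0 higher and 1 lower at 24 h. MYD88, the adaptor of most Toll-like receptors, had 19.9 and 18.7 CPM at 48 h, against 48.8 and 53.8 CPM in controls (log2 change -1.41 ± 0.09, SE, adjusted p = 2e-07). TRAF3, which links sensors to interferon induction, was lower at 48 h (-1.13), and RNF135, the ligase also called RIPLET that activates RIG-I, was higher (0.79). MYD88 was lower at 24 h too (-0.28), a call lost without any control, 4 h or 24 h library (highest adjusted p = 0.278).

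Of 8 tested inhibitors of interferon signalling, 4 were higher and 3 lower at 48 h. At 4 h 1 was higher and 1 lower, and 0 were called at 24 h. SOCS3, a feedback inhibitor of JAK kinases, had 8.75 and 12.5 CPM at 48 h, against 94.5 and 86.7 CPM in controls. Both lay below all others (log2 change -3.09 ± 0.13, SE, adjusted p = 7.41e-09). At 4 h SOCS3 was higher (0.50), a call lost without control replicate 2 or 4 h replicate 1 (highest adjusted p = 0.066). PIAS1, a SUMO ligase that restrains cytokine signalling, and PTPN2, a phosphatase of JAK1, were higher at 48 h (1.02 and 0.80). PIAS1 was lower at 4 h (log2 change -0.45, adjusted p = 0.00248).

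Of 40 tested further interferon-induced genes, 6 were higher and 23 lower at 48 h, 5 higher and 9 lower at 4 h, and 4 higher and 8 lower at 24 h. CCL2, the monocyte chemokine, had 1.36 and 1.13 CPM at 48 h, against 18.5 and 17.4 CPM in controls (log2 change -3.84 ± 0.15, SE, adjusted p = 6.3e-09). GCH1, which makes tetrahydrobiopterin, and GBP1, a guanylate-binding protein, were lower at 48 h (-1.93 and -1.66). CCL2 and GCH1 were also lower at 24 h (-0.72 and -0.68). GBP1 was higher at 4 h (0.33), a call lost without any control or 4 h library (highest adjusted p = 0.128).

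Of 20 further antigen-processing and presentation genes, 13 were higher and 2 lower at 48 h, with a median log2 change of 0.35. CANX, the chaperone calnexin, had 2016 and 1979 CPM at 48 h, against 1128 and 1165 CPM in controls (log2 change 0.80 ± 0.05, SE, adjusted p = 1.9e-07). B2M, the shared light chain of class I molecules, had 3631 and 3254 CPM at 48 h, against 2295 and 2192 CPM in controls. Both B2M values at 48 h lay above its controls (log2 change 0.62 ± 0.06, SE, adjusted p = 5.48e-06). CANX was also higher at 24 h (0.18), a call lost without any control, 4 h or 24 h library (highest adjusted p = 0.171). At 4 h 1 of the 20 was higher and 4 lower, and at 24 h 1 and 3. CD68, the only listed immune marker present in these cells, had 1049 and 930 CPM at 48 h, against 712 and 658 CPM in controls. At 48 h 33.3% of all tested genes were called higher, and the part of CD68 in the result was not tested.

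**Figure D4:**
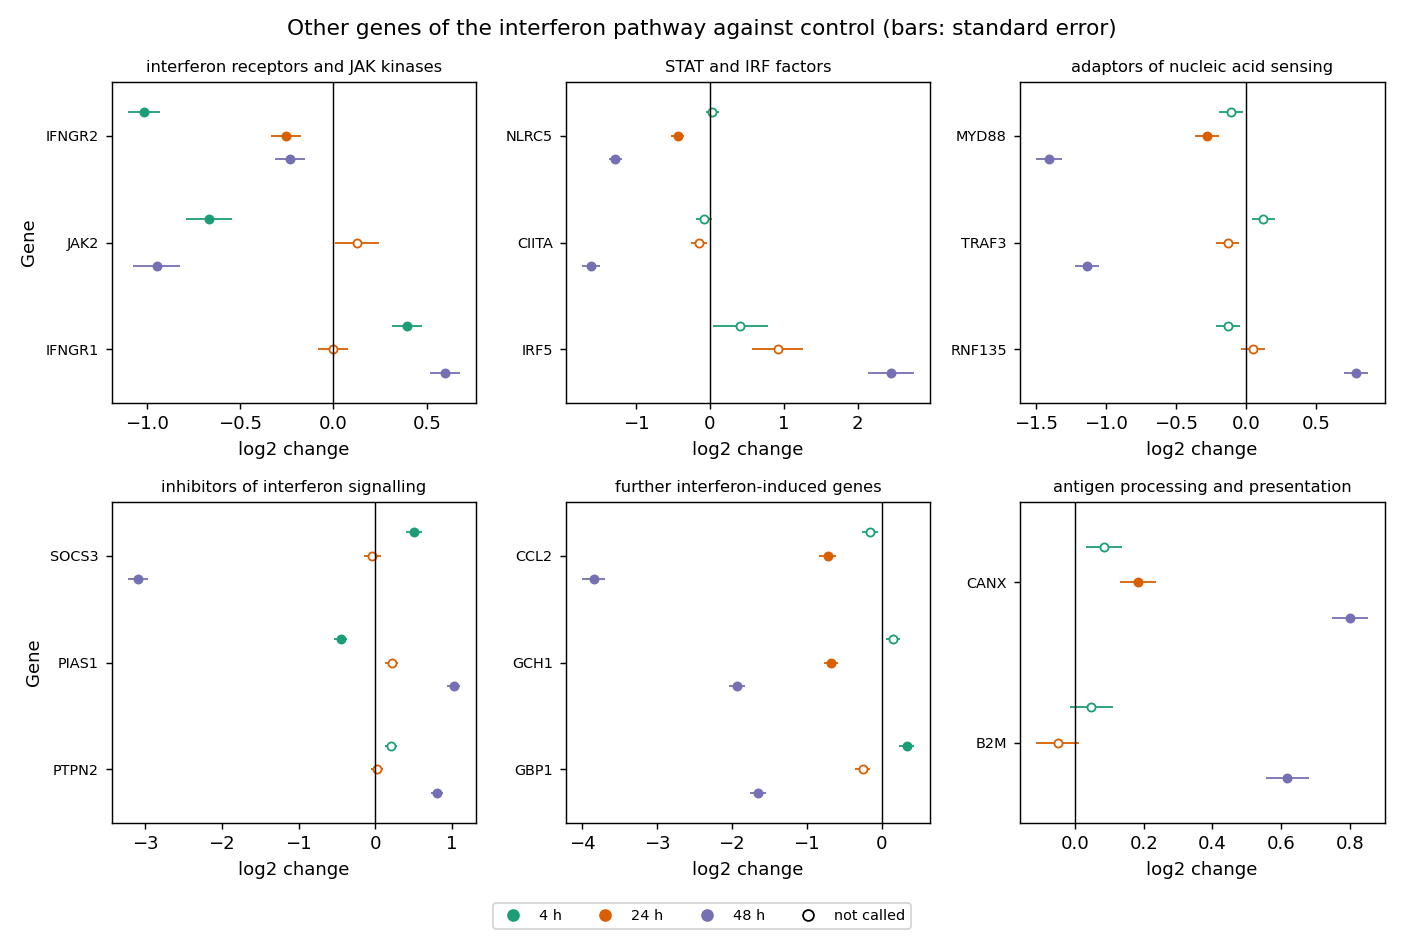
Log2 change against control of 17 further genes of the interferon pathway, in 6 groups, at 4, 24 and 48 h of enzalutamide. Points are fitted changes, bars are standard errors and filled points are called at an adjusted p under 0.05; horizontal scales differ between panels, and CCL2 and SOCS3 lie lowest and IRF5 highest at 48 h.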

How the data were processed

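RNA-seq was done on 8 libraries of U87MG cells in 4 groups of 2, grouped by their labels. The authors deposited raw counts of whole reads for each gene symbol, in 1 file per library. The submitters' processing notes name Bowtie, hg19 and GRCh37 without their roles. The version of Bowtie, the counting program, annotation and strand use were not given in the sources used here. Of 23368 gene rows, 28 had names turned into dates; they held 0.191 to 0.224% of each library and stayed in the totals.

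Counts were tested in R 4.3.3 with edgeR 4.0.16: filterByExpr, TMM scaling (factors 0.870 to 1.08), and 1 quasi-likelihood fit of all 8 libraries with 4 residual degrees of freedom. The biological coefficient of variation was 7.15%. A gene was called at a two-sided Benjamini-Hochberg adjusted p under 0.05 over 14448 genes. CPM are scaled by the TMM factors. Libraries of a group correlated at r = 0.992 to 0.995 and none was a copy. The script was tested on simulated data.

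The members, gene lists and named genes were chosen with earlier results of these data known. Values in every library were given for members called with an absolute log2 change of at least 1 and for the 8 most abundant; of each other list, up to 3 called genes with the smallest p were named, and some genes of these lists are not reported here. DESeq2 1.42.0, limma-voom (limma 3.58.1), other scaling, filters, thresholds, sample sets and each library left out were alternatives. Promoters and motifs came from RefSeq (GRCh38.p14), and exon lengths from GENCODE 29.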

Additional observations from a re-analysis of the deposited data

Results flagged for a closer look

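Several members differed between times of enzalutamide when the difference itself was tested in the edgeR fit. At 24 h against 4 h, 18 of 41 members differed (31.7% higher and 12.2% lower), beside 21.2 and 20.3% of all tested genes. OAS3 had a log2 change of 2.28 and XAF1 of -1.69 between these times. At 48 h against 24 h, 29 members differed (22% higher and 48.8% lower), beside 31.5 and 35.3% of all tested genes. The log2 change between these times was 1.84 for IRF1, -3.75 for SAMD9 and 0.68 for UBE2L6. With 2 libraries per group, no group was large enough to test for single outlying libraries.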

How the results depend on the processing

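Of 1339 values of 82 called gene changes against control under the alternatives, 1338 kept their direction, 1219 also kept their call and 119 lost it. The exception in direction was PSMB8 at 48 h, at -0.035 with library totals as the only scaling. Of the 82 changes, 53 were of members, and the rest were of the 17 further pathway genes, which were picked by smallest p. The pooled counts therefore do not show how steady the members' calls were. Member calls lost without single libraries are given with each gene above. Most member calls at 4 and 24 h were lost without some single library, whereas most at 48 h held without each library in turn. Requiring also an absolute log2 change of at least 1 removes small changes. It left 0 higher and 4 lower members at 4 h, beside 353 and 236 of all 14448 tested genes. At 24 h it left 0 and 1, beside 244 and 171, and at 48 h 2 and 12, beside 766 and 2290. For 24 h against 4 h it left 4 and 1, beside 604 and 545. For 48 h against 24 h it left 1 and 11, beside 798 and 2330. Library totals gave 1 higher member at 4 h and 4 at 48 h against 24 h, and DESeq2 gave 1 higher at 4 h. The lower members at 24 h numbered 10 in a fit of the 2 groups alone and 10 without the 48 h libraries, an alternative chosen after seeing the data. Of all genes tested in those fits, 2413 and 2330 were lower. The cause was not tested.

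With 1 library left out, higher and lower members ranged from 0 to 3 and 4 to 14 at 4 h, 4 to 7 and 0 to 8 at 24 h, 7 to 12 and 19 to 21 at 48 h, 9 to 13 and 3 to 6 at 24 h against 4 h, and 5 to 10 and 16 to 20 at 48 h against 24 h. The number of calls among all tested genes also changed with the library left out. A group left with 1 library is assumed to vary like the others. Among calls, the share of higher members at 4 h was 21.4%, 5.88% with library totals, and 9.09% with DESeq2. Over all genes these shares were 52.4, 38.2 and 49.7%. The members' share at 48 h against 24 h was 31.0%, and 14.8% with library totals, beside 47.1 and 32.1% over all genes. The labels number the libraries, but same-numbered deviations correlated at -0.00488 to 0.135, so no pairing was established. With a replicate block 3 and 13 members were higher and lower at 4 h, 5 and 7 at 24 h, 8 and 21 at 48 h, 13 and 6 at 24 h against 4 h, and 9 and 20 at 48 h against 24 h.

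Having 2 libraries per group limits these tests, and members under about 2 CPM, such as OAS1, OAS2, IFIT1 and MX1, rest on few counts. Dose, vehicle and control harvest time are unknown, and enzalutamide cannot be told apart from time in culture.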
